A study of Mus musculus with 36 samples.

Results

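The Ms4a membrane protein family is represented here by 5 genes, Ms4a4c, Ms4a6b, Ms4a6c, Ms4a6d and Ms4a7, taken by name from a table of 12795 genes in sorted mouse cardiac macrophages. All 5 are listed, none has a library without reads, and all 5 entered every test, so no member was lost to a filter on low counts. Mouse macrophages (cells that engulf debris and present antigen) were sorted from hearts after injury and their polyA RNA was sequenced in 36 libraries. The study asked how macrophages respond to overexpression of TFEB, a transcription factor that drives lysosomal genes.

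The 8 groups combine a cassette, a Cre status and a sorted fraction. TFEB-TG mice carry a TFEB cassette behind a floxed stop sequence (LoxP-STOP) and gave 4 libraries per group. TFEB-wt mice carry no cassette and gave 5 libraries per group. Cells with Cre are called mac-TFEB in TFEB-TG mice and CX3CR1-Cre in TFEB-wt mice, and cells without it are called Cre-neg in both. Each of these 4 kinds of cell was sorted into a CCR2neg and a CCR2pos fraction, by surface CCR2, a chemokine receptor of monocyte-derived cells. The growth protocol of every sample names Cx3cr1-er-Cre, an inducible Cre that the Cx3cr1 locus drives, and the reporter Td-Tomato-LoxSTOP. What separates Cre-neg cells from the rest is therefore not given in the sources used here. All mice received tamoxifen for 7 days and then 90 minutes of ischemia, and cells were collected 7 days later. Age, strain background and whether animals were pooled are not given. The labels number the samples 1 to 4 in TFEB-TG and 1 to 5 in TFEB-wt, which makes 9 labels with 4 libraries each. They do not say that the libraries of a group come from separate animals, so p-values here reflect variation among these libraries, possibly technical variation.

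MS4A proteins cross the membrane several times, and the best known of them is MS4A1 (CD20), the target of B cell depleting antibodies. Several family members in myeloid cells sit beside other receptors at the surface and alter their signalling: MS4A4A associates with the fungal receptor dectin-1 and affects TREM2, and mouse MS4A6D acts with the complement receptor VSIG4. Their genes lie in 1 cluster, and the mouse has more copies of the Ms4a4 and Ms4a6 types than the human genome.

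The members lie on chromosome 19 of GRCm38 in the order Ms4a7, Ms4a4c, Ms4a6c, Ms4a6b and Ms4a6d. In the GENCODE annotation Ms4a7 (ENSMUSG00000024672) spans chr19:11321039-11336146 on the minus strand and Ms4a4c (ENSMUSG00000024675) spans chr19:11404770-11427246 on the plus strand. Ms4a6c (ENSMUSG00000079419) spans chr19:11469366-11482192 and Ms4a6b (ENSMUSG00000024677) spans chr19:11516512-11531256, both on the plus strand. Ms4a6d (ENSMUSG00000024679) spans chr19:11586604-11604849 on the minus strand. The coding sequences of Ms4a6b and Ms4a6c were 85.0% identical, those of Ms4a6b and Ms4a6d 80.6% and those of Ms4a6c and Ms4a6d 77.0%. Ms4a4c was 91.7% identical to Ms4a4b, a T cell gene outside the members, and 55.5% to 56.4% identical to the 3 Ms4a6 genes. Ms4a7 was 51.5% to 59.2% identical to the other members.

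The bases before the start of Ms4a4c are shown because it is the member whose level differs most between groups, and those of Ms4a6b and Ms4a6c because these neighbours share sequence there. All 3 lie on the plus strand of GRCm38.p6 and come from RefSeq, which matched 4 of the 5 members. It held no window for Ms4a6d, whose promoter was therefore not searched. The shown bases are those of Ms4a4c, Ms4a6b and Ms4a6c. They are written 5′ to 3′ and stop before any exon at the start. The RefSeq starts of Ms4a4c and Ms4a6b lie inside the longer GENCODE spans given above. Capitals mark runs of at least 20 bases that Ms4a6b and Ms4a6c share.
Ms4a4c, chr19:11407411-11407660: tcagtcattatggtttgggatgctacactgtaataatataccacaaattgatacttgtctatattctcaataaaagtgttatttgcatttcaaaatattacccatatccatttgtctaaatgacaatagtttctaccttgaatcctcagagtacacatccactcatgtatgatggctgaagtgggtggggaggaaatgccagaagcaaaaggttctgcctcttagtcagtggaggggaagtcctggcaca
Ms4a6b, chr19:11518309-11518452: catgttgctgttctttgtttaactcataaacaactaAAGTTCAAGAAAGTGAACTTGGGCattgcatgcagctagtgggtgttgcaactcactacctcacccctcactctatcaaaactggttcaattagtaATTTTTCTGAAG
Ms4a6c, chr19:11469118-11469365: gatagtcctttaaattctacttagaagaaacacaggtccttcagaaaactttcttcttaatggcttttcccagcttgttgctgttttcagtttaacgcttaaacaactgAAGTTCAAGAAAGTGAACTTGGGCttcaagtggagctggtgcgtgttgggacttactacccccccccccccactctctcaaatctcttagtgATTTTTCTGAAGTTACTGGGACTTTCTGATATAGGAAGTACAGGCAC
The windows of Ms4a6b and Ms4a6c were 85.1% identical over 175 aligned bases. Their first shared run has 24 bases, and it lies 214 to 191 bases before the start of Ms4a6b and 141 to 118 bases before that of Ms4a6c. Their longest shared run has 48 bases, which the exon boundary cuts short above, and of the 32851 promoter windows in the table it is found in those of these 2 genes and in 0 others. The letters GAGGAAG (a PU.1-type ETS motif), CACGTG (E-box), TTGCNNAA (C/EBP) and TTCNNNGAA (STAT), and an interferon-stimulated response element, were searched on both strands of the 250-base windows. They matched none of the 4 members that have a window. They occur in 10.6%, 6.02%, 9.56%, 7.02% and 2.98% of all promoter windows. The ETS letters AGGAAGT, added after the sequences were read, occur in 7.69% of windows and matched Ms4a6b on both strands and Ms4a6c on the plus strand, 17 bases before its start. AGGAAGT shares its core with GAGGAAG, and a match is no evidence of a bound site.

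The libraries held 13797000 to 32646000 counted reads (median 19676000) in 12359 to 12780 genes. Tfeb checked the labels: it stood at 194 ± 135 CPM (reads scaled to the library total, mean ± SD, n = 4) in CCR2neg mac-TFEB against 8.07 ± 1.01 (n = 5) in CX3CR1-Cre, and at 158 ± 111 against 6.20 ± 2.85 in CCR2pos cells. TFEB-TG Cre-neg cells held 22.2 ± 12.3 CPM in CCR2neg and 38.3 ± 14.9 in CCR2pos, above the 6.93 ± 2.96 and 5.92 ± 0.707 of TFEB-wt Cre-neg cells. Ccr2 checked the sort, with group means of 48.1 to 76.1 CPM in CCR2neg and 647 to 853 CPM in CCR2pos. Cx3cr1, whose locus drives the Cre, differed with Cre status. It stood at 436 ± 98.4 CPM in CCR2neg CX3CR1-Cre against 216 ± 44.9 in TFEB-wt Cre-neg (edgeR adjusted p 0.0019). In CCR2pos these means were 406 and 273 (adjusted p 0.57). In TFEB-TG the means with and without Cre were 366 and 246 CPM in CCR2neg (adjusted p 0.37) and 384 and 347 in CCR2pos. All 12 macrophage core markers were measured, and they summed to 35014 to 49902 CPM. Xist was present in all libraries of 6 labels and in none of 3. The 6 were 2 of the 4 TFEB-TG labels and 4 of the 5 TFEB-wt labels. Sex read from Xist was therefore not balanced in the contrasts between TFEB-TG and TFEB-wt. The libraries TFEB-TG CCR2neg Cre-neg 1 and the 4 labelled TFEB-wt 3 stood apart. Their root mean square distance from their group means was 0.61 to 0.802 on the log2 scale, against 0.353 to 0.667 in the other 31, where the highest was TFEB-TG CCR2neg mac-TFEB 1. Member results that change without these 5 libraries are given beside them.

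Every member was expressed in every library, at 432 to 82913 reads. To compare genes, levels were set per kilobase of annotated exon, and so they depend on the annotated lengths. Mean levels over the 36 libraries were 547 CPM per kb for Ms4a6d, 435 for Ms4a7, 202 for Ms4a6c, 99.2 for Ms4a6b and 49.1 for Ms4a4c. Ms4a6d and Ms4a7 were the highest members by this measure, and Ms4a4c the lowest. The place of Ms4a6c is uncertain, because 1088 of its 2050 exonic bases overlap the antisense gene BE692007. How reads there were counted, which carry no strand, is not given, so its level per kb may be too low or too high. Of the 6 other Ms4a genes in the table, Ms4a4a (the mouse MS4A4A) stood above all members at 743 CPM per kb. That place depends on its annotation of 836 exonic bases, against 1735 for Ms4a6d and 4453 for Ms4a7. In CPM its mean of 621 lay below the 949 of Ms4a6d and the 1936 of Ms4a7. The remaining 5 lay below Ms4a4c. These were Ms4a8a at 21.0, Ms4a14 at 13.1, Ms4a1 at 3.99, Ms4a4b at 0.469 and Ms4a4d at 0.396 CPM per kb, the last with no reads in 4 libraries.

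**Figure D1:**
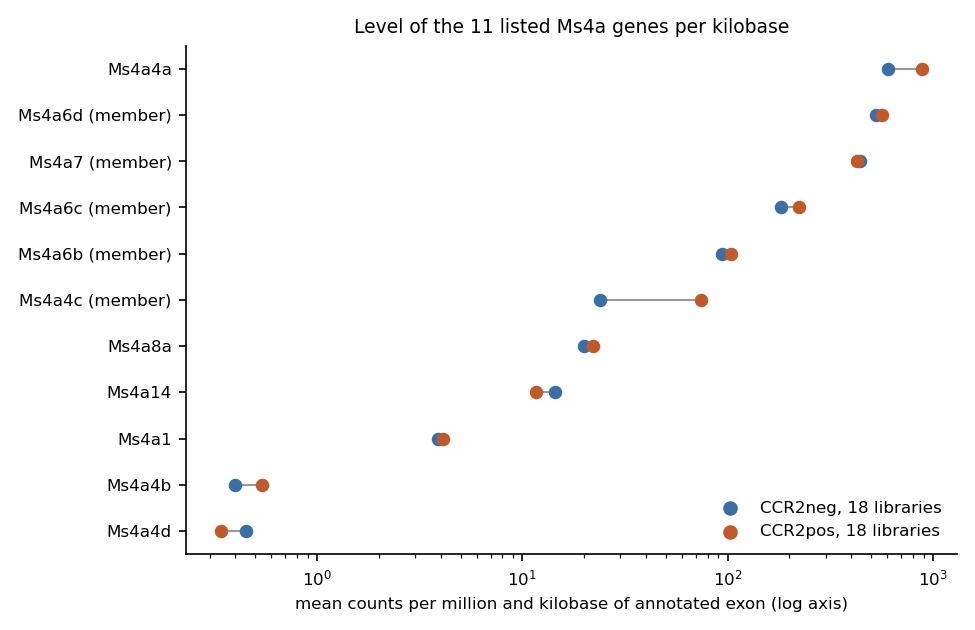
Mean level of the 11 listed Ms4a genes in CPM per kilobase of annotated exon, on a log axis, over the 18 CCR2neg (blue) and 18 CCR2pos (orange) libraries. Ms4a4c moves from 23.95 to 74.2 between the fractions, while the points of Ms4a7, Ms4a6d and Ms4a6b lie close together.

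Ms4a4c was the member that differed between the sorted fractions. In TFEB-wt Cre-neg cells its level was 47.1, 57.9, 34.55, 42.1 and 27.65 CPM in CCR2neg and 158, 232, 205.5, 118 and 129 CPM in CCR2pos libraries 1 to 5. In CX3CR1-Cre cells it was 54.95, 43.8, 42.7, 52.0 and 49.2 CPM in CCR2neg and 117, 94.8, 88.8, 94.2 and 77.2 CPM in CCR2pos. The highest CCR2neg library thus lay below the lowest CCR2pos library in both. In TFEB-TG Cre-neg cells it was 32.4, 36.1, 39.7 and 59.6 CPM in CCR2neg and 118, 183, 136 and 220 CPM in CCR2pos. In mac-TFEB cells it was 26.1, 28.6, 30.5 and 49.7 CPM in CCR2neg and 71.2, 78.5, 92.8 and 125 CPM in CCR2pos. Again no libraries overlapped, and the CCR2pos library was higher in 18 of 18 pairs that share a label and Cre status.

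Fold changes and their standard errors come from edgeR's quasi-likelihood test on all 36 libraries, and a gene is called where its Benjamini-Hochberg adjusted p over the 12795 genes is under 0.05. Ms4a4c rose in CCR2pos against CCR2neg cells by 2.07 on the log2 scale in TFEB-wt Cre-neg (SE 0.23, adjusted p 1.5e-06) and by 2.03 in TFEB-TG Cre-neg (SE 0.26, adjusted p 5.9e-06). It rose by 1.49 in mac-TFEB (SE 0.25, adjusted p 0.0016) and by 1.06 in CX3CR1-Cre (SE 0.22, adjusted p 0.013). The median ratio of CCR2pos to CCR2neg within labels was 4.0, 3.67, 2.74 and 2.08 in the same order. One of the 5 members was thus called higher in each of the 4 comparisons, where 1.53%, 2.47%, 0.391% and 0.594% of all genes were called higher. Groups did not overlap, with CCR2pos higher, for 1.52%, 2.97%, 2.02% and 0.914% of all genes. In CX3CR1-Cre cells the call was lost without the library CCR2neg 3, where the difference was 1.02 (adjusted p 0.0564), and without the 5 libraries that stood apart 1.05 (adjusted p 0.0598). These are bulk samples, in which fewer cells of a type and less RNA per cell cannot be told apart.

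**Figure D2:**
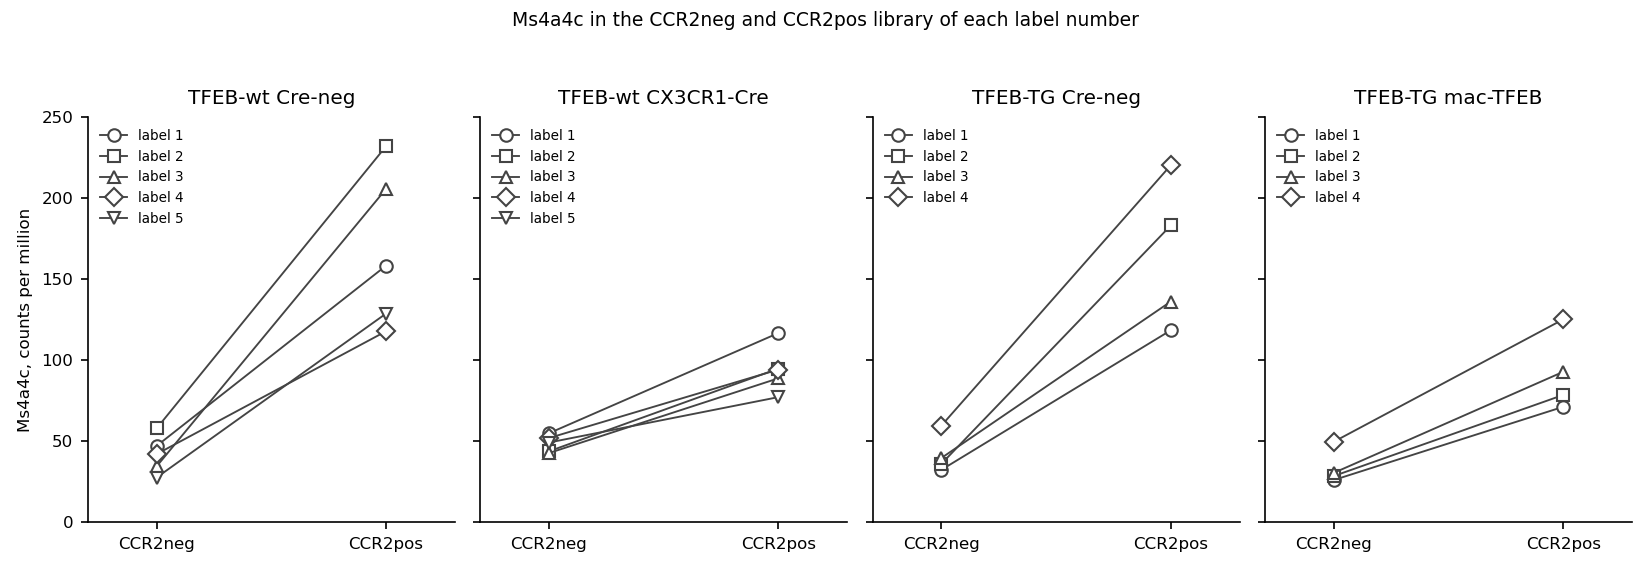
Ms4a4c in CPM (vertical axis, from 0) in the CCR2neg and CCR2pos library of each label number, for the 4 combinations of cassette and Cre status. Every line climbs, and the CCR2pos ends reach 118 to 232 CPM in Cre-neg cells and 71.2 to 125 CPM in the Cre groups.

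Without a block or another setting the other 4 members were not called in any of the 4 fraction comparisons, although most leaned toward CCR2pos. Ms4a6c was higher in the CCR2pos library of 17 of 18 label pairs. In TFEB-wt Cre-neg cells it ranged from 318.5 to 419.5 CPM in CCR2neg and from 459 to 532 CPM in CCR2pos, with no overlap. Its log2 difference there was 0.49 (SE 0.14, adjusted p 0.061), against 0.28, 0.30 and 0.32 in CX3CR1-Cre, mac-TFEB and TFEB-TG Cre-neg. The difference of 0.49 was called by DESeq2 (adjusted p 0.023), with a sex term (adjusted p 0.024) and from the compared libraries alone (adjusted p 0.043). With labels as a block, which compares libraries within a label, the TFEB-TG Cre-neg difference of 0.34 was called (adjusted p 0.017), where 6.26% of all genes were called higher. Pairing by label was accepted where every pair of same-numbered libraries correlated above 0.1. The TFEB-wt Cre-neg fractions narrowly missed this, with a lowest pair of 0.0979 and a mean of 0.329, against a mean of 0.214 in CX3CR1-Cre. Their block values are therefore given in the closing section with the other settings. The block called Ms4a6b (adjusted p 0.0017) and Ms4a6c (adjusted p 1.8e-04) there too, where 469 of 12795 genes were called higher. Ms4a6b was higher in CCR2pos in 14 of 18 pairs, with a log2 difference of 0.41 in TFEB-wt Cre-neg (SE 0.13, adjusted p 0.090, or 0.048 by DESeq2) and of 0.08, 0.15 and 0.21 in the other 3. Ms4a6d was higher in 13 of 18 pairs, by 0.33 in CX3CR1-Cre, 0.05 in mac-TFEB, 0.22 in TFEB-wt Cre-neg and 0.02 in TFEB-TG Cre-neg, the last turning to -0.14 without the 5 libraries that stood apart. Under the block its CX3CR1-Cre difference of 0.33 was called (adjusted p 0.039), where 2.7% of all genes were called higher. Ms4a7 was higher in CCR2pos in 9 of 18 pairs. Its log2 difference was 0.26 and 0.19 in the TFEB-wt groups with and without Cre and -0.21 and -0.22 in the TFEB-TG groups. The members' median log2 difference was 0.28, 0.15, 0.41 and 0.21 in CX3CR1-Cre, mac-TFEB, TFEB-wt Cre-neg and TFEB-TG Cre-neg, beside -0.01, -0.02, -0.01 and -0.03 over all genes.

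**Figure D3:**
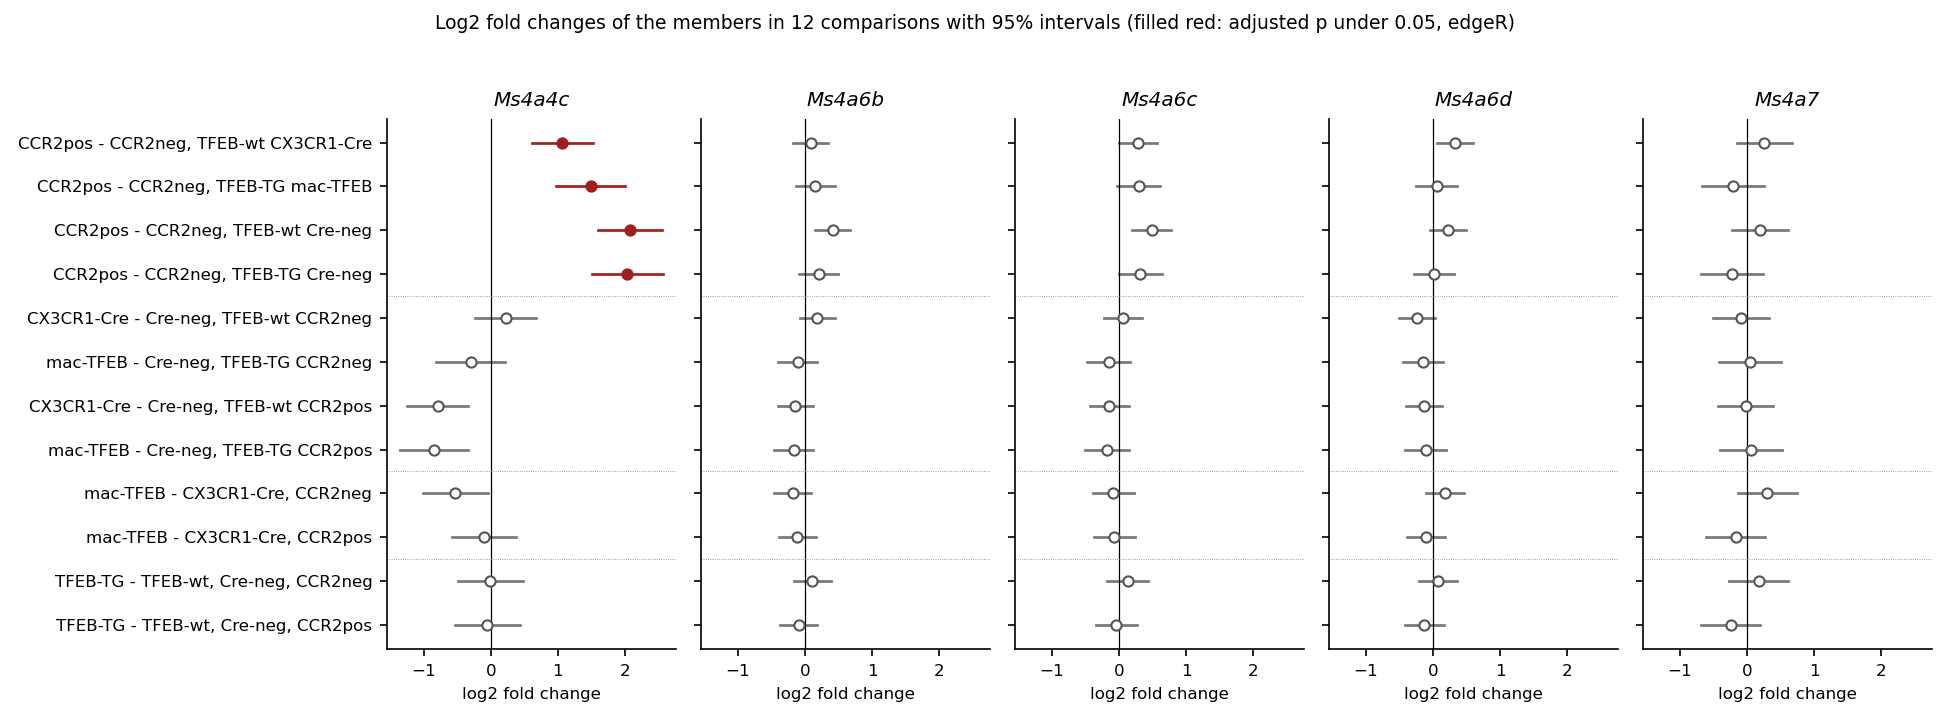
Log2 fold changes of the 5 members (horizontal axes) with 95% intervals in 12 comparisons, named at the left as the first group minus the second. Filled red points are called by edgeR, and they are the 4 fraction differences of Ms4a4c, from 1.06 to 2.07.

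The levels of Ms4a4c fall into 3 steps across the 8 groups. The 4 CCR2neg groups held means of 33.7 ± 10.8 CPM (mac-TFEB, n = 4), 41.9 ± 11.6 (TFEB-wt Cre-neg, n = 5), 41.95 ± 12.2 (TFEB-TG Cre-neg, n = 4) and 48.55 ± 5.23 (CX3CR1-Cre, n = 5). Next came CCR2pos mac-TFEB at 91.9 ± 23.9 and CX3CR1-Cre at 94.3 ± 14.35 CPM, and then CCR2pos TFEB-TG Cre-neg at 164 ± 46.1 and TFEB-wt Cre-neg at 168 ± 49.1 CPM. Only the gaps between these 3 steps were larger than the SD on either side, and neighbours within a step did not differ beyond their spread. The highest group mean was 4.99 times the lowest for Ms4a4c, against 1.27 for Ms4a6b, 1.37 for Ms4a6c, 1.33 for Ms4a6d and 1.24 for Ms4a7. For those 4 members no neighbours in the order differed beyond their spread. Ms4a6b ran from 316 to 542 CPM over all libraries, Ms4a6c from 298 to 580, Ms4a6d from 709.5 to 1188 and Ms4a7 from 1131 to 2561. On the log2 scale the group means of Ms4a4c spanned 2.32 and those of the other members 0.348 to 0.463, where the median over all genes was 0.542 and over genes above 10 CPM 0.395.

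**Figure D4:**
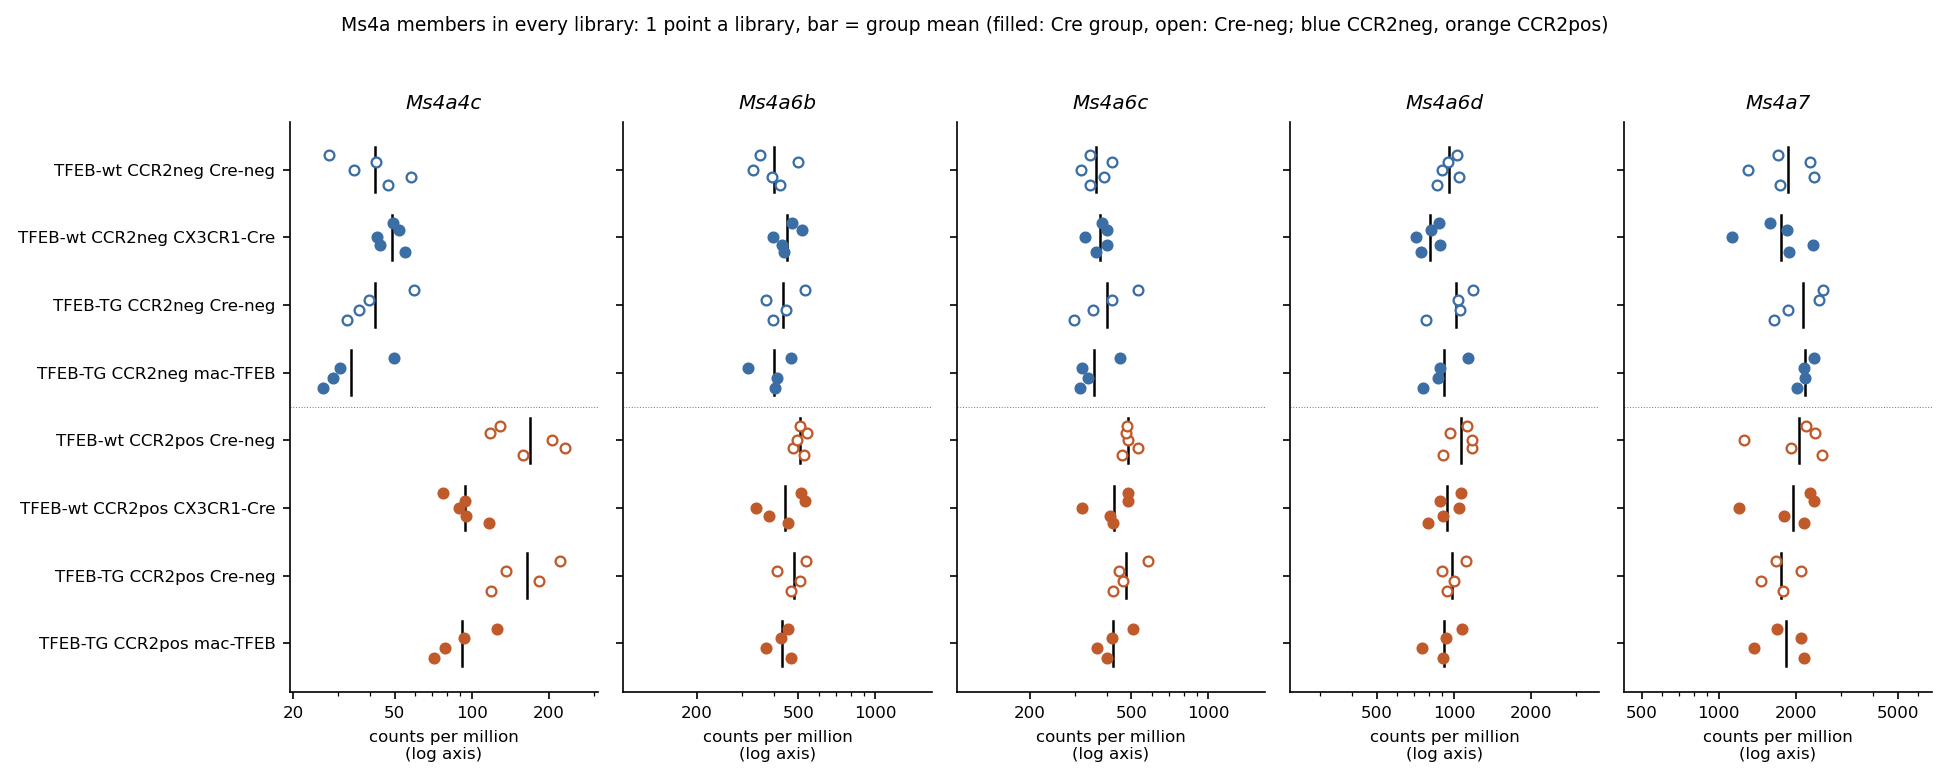
Each member in CPM on log axes (1 panel per gene, equal fold range), with 1 point per library, a bar at the group mean, open points for Cre-neg and filled points for the Cre groups. Ms4a4c separates CCR2neg (26.1 to 59.6 CPM) from CCR2pos (71.2 to 232 CPM), while the fractions of the other members overlap, except for Ms4a6c in TFEB-wt Cre-neg (318.5 to 419.5 against 459 to 532 CPM).

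The second step of Ms4a4c follows Cre status within CCR2pos cells. Its CCR2pos level was lower with Cre in 9 of 9 pairs of libraries that share a label, against 5 of 9 pairs in CCR2neg cells. These 5 were 1 of 5 pairs in TFEB-wt and 4 of 4 in TFEB-TG, there with ratios of 0.769 to 0.833. In TFEB-wt the 2 CCR2pos groups did not overlap (77.2 to 117 CPM with Cre, 118 to 232 without), which held with Cre lower for 1.02% of all genes. In TFEB-TG they overlapped (71.2 to 125 with, 118 to 220 without). The log2 difference was -0.79 in TFEB-wt (SE 0.22, p 0.0012, adjusted p 0.51) and -0.85 in TFEB-TG (SE 0.25, p 0.0018, adjusted p 1.0), so Ms4a4c was not called without the block. With labels as a block it was called in both, at -0.77 (SE 0.14, adjusted p 0.0035) and -0.84 (SE 0.16, adjusted p 0.0096), where 1.05% and 0.203% of all genes were called. In CCR2neg cells the Cre difference was 0.22 in TFEB-wt and -0.30 in TFEB-TG, not called. The change of the Cre difference between fractions in TFEB-wt was -1.01 (SE 0.32, p 0.0030, adjusted p 0.99). That test called 0% of genes, with 524 at an unadjusted p under 0.05.

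Monocyte markers were also lower with Cre in CCR2pos cells. The 12 markers summed to 1148 to 1814 CPM in CCR2pos CX3CR1-Cre against 1683 to 4764 in TFEB-wt Cre-neg, and to 891.5 to 2084.5 in CCR2pos mac-TFEB against 2228 to 3299 in TFEB-TG Cre-neg. Their median log2 difference with Cre was -1.57 and -1.39. The sums overlapped in TFEB-wt and not in TFEB-TG. None of the 12 was called without the block, and 6 and 4 were called lower with it, where 51 and 17 of 12795 genes were. In CCR2neg cells, where Ms4a4c was not called with Cre, the same sums were 681.5 to 1114 against 1530 to 4217 CPM in TFEB-wt and 860.5 to 1237 against 1696 to 6978 in TFEB-TG, without overlap in either. Between the fractions the list had 1 gene called higher in CX3CR1-Cre and in mac-TFEB, which was Ccr2. It had 3 in each Cre-neg comparison, which were Ccr2, Plac8 and Ly6c2. The cells were sorted by CCR2, so the call of Ccr2 follows from the sort. Of all genes 0.594%, 0.391%, 1.53% and 2.47% were called higher in CX3CR1-Cre, mac-TFEB, TFEB-wt Cre-neg and TFEB-TG Cre-neg. With the block 4 were called higher in CX3CR1-Cre, 5 in mac-TFEB and 4 in TFEB-TG Cre-neg, where 1 was called lower. Of 12795 genes the block called 345, 302 and 801 higher in the same order. No marker of the list was at 0 in a whole group. The part of monocytes in the level of Ms4a4c was not tested.

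None of the other 4 members was called in any of the 4 Cre comparisons, where 2.6%, 0.156%, 0.00782% and 0.0156% of all genes were called in TFEB-wt CCR2neg, TFEB-TG CCR2neg, TFEB-wt CCR2pos and TFEB-TG CCR2pos. At an unadjusted p under 0.05 stood 1671, 980, 722 and 266 genes, among them Ms4a4c in both CCR2pos comparisons and no other member. Ms4a6d was lower with Cre in 9 of 9 CCR2neg and 8 of 9 CCR2pos pairs, by small amounts. In CCR2neg TFEB-wt it stood at 746, 880, 709.5, 810.5 and 877 CPM with Cre and at 857, 1049, 898, 949 and 1028 CPM without, a log2 difference of -0.24 (SE 0.13, adjusted p 0.45) with overlapping groups. Its other Cre differences were -0.15, -0.14 and -0.11. Ms4a7 differed with Cre by -0.09 to 0.05, Ms4a6c by -0.18 to 0.06 and Ms4a6b by -0.16 to 0.18.

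TFEB overexpression, the contrast of mac-TFEB with CX3CR1-Cre, called none of the 5 members. In CCR2neg cells 1.38% of all genes were called and 1873 had an unadjusted p under 0.05. Ms4a4c had the largest difference of the members there, at 26.1 to 49.7 CPM in mac-TFEB against 42.7 to 54.95 in CX3CR1-Cre. The groups overlapped through mac-TFEB 4, and the log2 difference was -0.53 (SE 0.24, p 0.035, adjusted p 0.30). Ms4a7 stood at 2019.6, 2171, 2144 and 2364 CPM in CCR2neg mac-TFEB against 1877, 2328, 1131, 1846 and 1585 in CX3CR1-Cre, a log2 difference of 0.30 (SE 0.22, adjusted p 0.57). Ms4a6b, Ms4a6c and Ms4a6d differed by -0.18, -0.09 and 0.17. In CCR2pos cells all 5 members lay between -0.17 and -0.07, where 0.0391% of genes were called and 591 had an unadjusted p under 0.05. The 95% intervals of Ms4a6b, Ms4a6c and Ms4a6d stayed within -0.46 and 0.46 in both fractions, so larger log2 responses of these 3 genes lie outside them. The same limits for Ms4a4c ran from -1.02 to 0.37, and for Ms4a7 from -0.61 to 0.74.

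The cassette alone, in Cre-neg cells, called no member either. Tfeb itself rose in this contrast, by 1.65 in CCR2neg (SE 0.43, adjusted p 0.070) and by 2.68 in CCR2pos (SE 0.43, adjusted p 0.0025). The contrast is thus not free of added Tfeb RNA, and a response beyond the cassette leaves out that part. The 5 log2 differences of the members lay between -0.01 and 0.17 in CCR2neg, where 0.406% of genes were called and 1671 had an unadjusted p under 0.05. They lay between -0.25 and -0.04 in CCR2pos, where 0.0313% were called and 393 had such a p. The response to TFEB beyond the cassette was -0.52 for Ms4a4c in CCR2neg (adjusted p 1.0) and -0.06 in CCR2pos. These tests called 0% of genes in each fraction, with 496 and 145 at an unadjusted p under 0.05 and no member among them. No member's response to TFEB was called as different between fractions, with 0% of genes called and 505 at an unadjusted p under 0.05. Ms4a4c had the value 0.42 (SE 0.33) in that test and Ms4a7 had -0.47 (SE 0.31). DESeq2 called 2 genes beyond the cassette in CCR2neg, neither of them a member, and 0 in the other 3 tests of a difference. With labels as a block 32 genes were called beyond the cassette in CCR2neg, none of them a member and among them the relatives Tmem176a (-0.63, adjusted p 0.018) and Tmem176b (-0.59, adjusted p 0.028), and 0 in the other 3 tests.

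Libraries that share a label deviated together from their group means. Of the variance of log2 CPM within groups, 66.7% lay between labels for Ms4a4c, 66.6% for Ms4a6b, 74.9% for Ms4a6c, 64.9% for Ms4a6d and 71.5% for Ms4a7, against a median of 44.3% over all genes and 49.1% over genes above 10 CPM. Ms4a7 was low in TFEB-wt 3 whichever fraction or Cre status was sorted. It stood at 1131 and 1298.5 CPM in CCR2neg and at 1197 and 1260 in CCR2pos (with and without Cre), which lay 0.60 below the group means on the log2 scale. These are 4 of the 5 libraries that stood apart, and they differ from their groups across many genes. TFEB-TG 4 was high for 4 members in all of its 4 libraries, by 0.52 for Ms4a4c, 0.34 for Ms4a6c, 0.25 for Ms4a6d and 0.19 for Ms4a6b, but not for Ms4a7 (0.07). TFEB-TG 1 was lowest for Ms4a4c at -0.35.

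**Figure D5:**
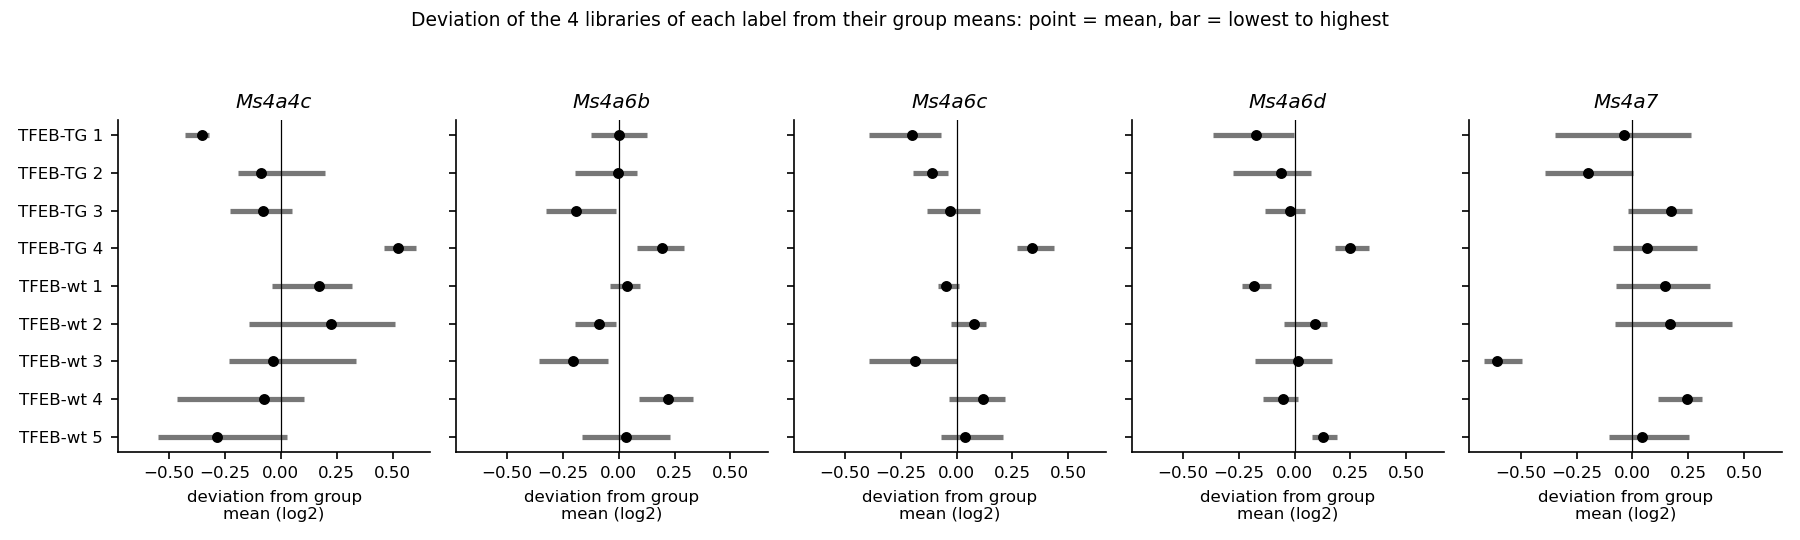
Deviation of each label's 4 libraries from their group means in log2 CPM (horizontal axes), with the mean as a point and the lowest to highest library as a bar. Ms4a7 in TFEB-wt 3 averages -0.60 and Ms4a4c in TFEB-TG 4 averages 0.52, with all 4 libraries on the same side.

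Ms4a6b and Ms4a6c, the neighbours with shared promoter runs, had a Pearson r of 0.67 over the 18 CCR2neg and 0.80 over the 18 CCR2pos libraries, which share labels and groups. Over the 9 label means r was 0.65 (rho 0.55, permutation p 0.087 and 0.14, adjusted 0.28 and 0.38 over 10 pairs of members). It was 0.53 without the 2 labels farthest from the median of Ms4a6b. None of the 10 pairs passed adjustment. Ms4a6c and Ms4a6d had an r of 0.73, which was 0.26 without the 2 labels farthest from the median of Ms4a6c. Leaving out the same labels moved Ms4a6c and Ms4a7 the other way, from 0.56 to 0.85. Reads can be shared here: 521 of the 2001 50-base windows of Ms4a6c and 594 of the 4561 of Ms4a6b lay within 2 mismatches of another Ms4a gene, as did 436 of 1747 for Ms4a4c (with Ms4a4b and Ms4a4d), 133 of 1731 for Ms4a6d and none for Ms4a7. Ms4a6c also shares 1088 exonic bases with the antisense gene BE692007, and since the libraries carry no strand, reads of the 2 cannot be told apart. Ms4a4b and Ms4a4d, the close copies of Ms4a4c, were listed at means of 4.12 and 0.599 CPM against 85.9 for Ms4a4c.

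Across the 36 libraries and 7320 genes above 10 CPM, the genes most like each member were named by Pearson r of log2 CPM, a description in which libraries share labels and groups. Ms4a4c was most like Sirpb1a (0.89), the sort marker Ccr2 (0.88) and the GPI-anchored Ly6e (0.88), and these fell to 0.50, 0.38 and 0.65 once group means were removed. Ms4a6c was most like the IgG receptors Fcgr1 (0.86) and Fcgr4 (0.86) and Lst1 (0.80), with 0.78, 0.86 and 0.72 within groups. Ms4a6d was most like the inhibitory receptor Pirb (0.77), the ATP-gated channel P2rx4 (0.76) and Gca (0.74). Ms4a6b was most like Cept1 (0.70), BE692007 (0.69), the antisense gene that overlaps Ms4a6c, and Aif1 (0.65), which encodes the macrophage marker IBA1. Ms4a7 was most like Skp1a (a ubiquitin ligase subunit), Brk1 (of the actin-regulating WAVE complex) and Sptssa (a subunit of serine palmitoyltransferase), at 0.82, 0.82 and 0.81.

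Among the other family genes, Ms4a8a was the Ms4a gene called with Cre. In CCR2neg TFEB-wt cells it stood at 20.9, 13.8, 18.6, 15.9 and 21.1 CPM with Cre and at 64.3, 49.6, 38.3, 52.8 and 68.9 without. The groups were far apart, and it fell by 1.60 on the log2 scale (SE 0.30, adjusted p 0.0024). In TFEB-TG CCR2neg it stood at 4.96, 17.1, 23.0 and 27.6 CPM with Cre and at 43.3, 52.0, 66.3 and 45.0 without, a difference of -1.48 (SE 0.34, adjusted p 0.053), called with the block at -1.66 (adjusted p 2.9e-04), and also without Cre-neg 1 at -1.59 (adjusted p 0.047) or mac-TFEB 4 at -1.76 (adjusted p 0.037). These groups did not overlap either. In CCR2pos cells the differences were -0.62 and -0.48, not called. Its fraction differences with Cre were 0.88 in CX3CR1-Cre and 0.89 in mac-TFEB, uncalled as they stand and called with the block (0.89 and 0.92, adjusted p 0.020 and 0.035). The monocyte sums given above, and the monocyte markers Hp, Fn1 and Ifitm6, which were called, were also lower with Cre in CCR2neg TFEB-wt cells, and their part in Ms4a8a was not tested.

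Ms4a4a leaned toward CCR2pos in all 4 comparisons, by 0.63, 0.64, 0.68 and 0.52 in CX3CR1-Cre, mac-TFEB, TFEB-wt Cre-neg and TFEB-TG Cre-neg (adjusted p 0.17, 0.28, 0.077 and 0.25). With the block it was called in CX3CR1-Cre at 0.62 (adjusted p 0.0012), in mac-TFEB at 0.71 (adjusted p 0.0010) and in TFEB-TG Cre-neg at 0.53 (adjusted p 0.0069). In TFEB-wt Cre-neg, where its groups did not overlap (476.1 to 712.7 against 715.3 to 1189.9 CPM), DESeq2 (adjusted p 0.028), a sex term (adjusted p 0.044) and the compared libraries alone (adjusted p 0.036) called it. Its level was lower in mac-TFEB than in CX3CR1-Cre by 0.66 in CCR2neg and by 0.65 in CCR2pos, neither called, and the cassette alone gave -0.38 and -0.53. Tmem176a and Tmem176b, relatives of the MS4A proteins on chromosome 6, rose in CCR2pos in all 4 comparisons, by 0.54, 0.95, 0.71 and 0.68 and by 0.43, 0.74, 0.54 and 0.52 in the same order. Tmem176b lost its call in CX3CR1-Cre without CCR2neg library 2 (adjusted p 0.051) or 3 (adjusted p 0.064), with 0.42 in both. From the compared libraries alone it also lost its calls in TFEB-wt Cre-neg (0.54, adjusted p 0.0505) and TFEB-TG Cre-neg (0.52, adjusted p 0.061). The pair overlaps on opposite strands by 81 exonic bases, whose reads cannot be assigned. With TFEB in CCR2neg cells they fell by 0.91 (SE 0.11, adjusted p 7.5e-06) and by 0.73 (SE 0.10, adjusted p 8.5e-05). No Ms4a gene was called in that contrast without a block or another setting. Ms4a4a was called lower there with a sex term (-0.77, adjusted p 0.037). A block of the shared numbers also called it (-0.75, adjusted p 0.044). Those numbers did not pair between genotypes (mean correlation -0.153 in this contrast), so that block does not apply here. Ms4a1, Ms4a14, Ms4a4b and Ms4a4d were called in none of the 12 comparisons. Nor were the genes around and within the cluster: Ccdc86, AW112010, BE692007, Gm8369, Mrpl16 and Stx3.

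Of 16 receptors and signalling partners described with MS4A proteins, all were measured, and the antigen presentation genes among them moved between fractions. None was called in CX3CR1-Cre cells, 3 were called higher and 1 lower in CCR2pos mac-TFEB and TFEB-TG Cre-neg cells, and 4 higher and 2 lower in TFEB-wt Cre-neg cells. Cd74 (the invariant chain of MHC class II) rose by 1.09, 1.03 and 1.47 in mac-TFEB, TFEB-wt Cre-neg and TFEB-TG Cre-neg, and H2-Aa and H2-Ab1 (class II chains) by 1.17 to 1.94. The tetraspanin Cd9 fell in the same 3 comparisons, with log2 differences of -1.11, -1.415 and -1.298. With TFEB in CCR2neg cells H2-Aa, Cd74 and H2-Ab1 fell by 1.198, 1.18 and 1.44, and no gene of the list rose. With the cassette alone H2-Aa fell by 0.73 and H2-Ab1 fell by 1.06 in CCR2neg cells, and with Cre in TFEB-wt CCR2neg cells H2-Aa, Cd74 and H2-Ab1 rose by 0.96, 0.96 and 1.02. The block called more of this list: 3 higher and 3 lower in CX3CR1-Cre, 4 and 2 in mac-TFEB, and 5 and 3 in TFEB-TG Cre-neg. Of 12795 genes it called 345 higher and 207 lower, 302 and 179, and 801 and 427 in the same order. The list's median log2 fraction difference lay between -0.01 and 0.10, close to the -0.03 to -0.01 of all genes.

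Markers of other cells and states stand beside the fraction result as follows. Of 16 interferon response genes, 6 were called higher in CCR2pos in TFEB-wt Cre-neg and 2 in TFEB-TG Cre-neg cells, led by Irf7 and Isg15, and none in the Cre groups. With the block 4, 4 and 12 were called higher in CX3CR1-Cre, mac-TFEB and TFEB-TG Cre-neg. The block raised calls over the whole table, which bears on every block count given here. Of 12795 genes it called 345, 302 and 801 higher and 207, 179 and 427 lower in these 3 comparisons. Of 10 dendritic cell markers, 3 were called higher in CX3CR1-Cre (Cd209a, Dpp4 and Flt3) and 1 in each Cre-neg comparison, and with the block 4, 3 and 2 in CX3CR1-Cre, mac-TFEB and TFEB-TG Cre-neg. The 10 summed to 53.4 to 158.5 CPM in CCR2neg and 62.6 to 238 in CCR2pos. Of 11 resident cardiac macrophage markers measured, Cd163 and Lyve1 fell in TFEB-wt Cre-neg cells and none was called in the other 3, where the block called 2, 1 and 5 lower and none higher. Of the 12 macrophage core genes Fcgr1 was called higher in TFEB-wt Cre-neg and no other without the block. With it 2, 2 and 4 were called higher and 0, 0 and 1 lower in CX3CR1-Cre, mac-TFEB and TFEB-TG Cre-neg. No measured marker of B cells (7 of 8 listed), mast cells (2 of 7), neutrophils (5 of 8), fibroblasts (8 of 8) or endothelial cells (8 of 8) was called between fractions without the block. With it 3, 3 and 1 B cell markers were called higher in CX3CR1-Cre, mac-TFEB and TFEB-TG Cre-neg, and the 7 summed to 127 to 258 CPM. Of the neutrophil markers it called 1 higher in CX3CR1-Cre, 1 higher in mac-TFEB and 1 lower in TFEB-TG Cre-neg. Of the T and NK cell markers Cd4 was called higher in TFEB-wt Cre-neg, and of the cardiomyocyte markers Ttn, Tnnt2 and Tnni3 fell in TFEB-TG Cre-neg, where 1 CCR2neg library summed to 513 CPM and the block called none. The part of these cells in the member levels was not tested.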

How the data were processed

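PolyA RNA of flow-sorted cardiac macrophages was sequenced in 36 libraries (8 groups of 4 or 5). Per the labels' protocols, cDNA came from the SMARTer Ultra Low kit with 1 to 50 ng of RNA of integrity above 8, 12 cycles of amplification and single 50-base reads without strand. Per the submitters' processing notes, the tools were HTSeq, TopHat, TopHat2 2.0.10, Bowtie2, edgeR and DESeq with the build GRCm38, and no parameters are given in the sources used here. The authors deposited 1 table of raw counts per gene. Here CPM (counts scaled to the library total) and log2 values were computed from it.

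Tests used edgeR 4.0.16 in R 4.3.3 (TMM, filterByExpr with a minimum count of 10, which removed no gene, 1 quasi-likelihood fit of 8 group means, Benjamini-Hochberg over 12795 genes). The fit was tested on simulated data, and the outcome of that test is not given here. Alternatives were DESeq2 1.42.0, other scaling and filters, a sex term from Xist, the compared libraries alone, a replicate block and leaving out libraries. Same-numbered libraries of a genotype deviated together: every pair's correlation was at least 0.14 in 7 of 8 comparisons within a genotype. In the fraction comparison of TFEB-wt Cre-neg the lowest was 0.0979, and between genotypes the numbers did not pair. The members, the marker and partner lists and the tests were chosen with earlier results of these data known. Named genes are the members, their family genes, the most like genes, cluster neighbours and at most 4 called genes per list.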

Additional observations from a re-analysis of the deposited data

How the results depend on the processing

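The number of members called in a comparison stayed within 1.5 times of its value in 180 of 182 fits that left out 1 library and in 119 of 128 others. The exceptions follow. In CX3CR1-Cre fractions 1 member was called, 2 with the replicate block, 0 without the 5 libraries that stood apart and 0 to 1 on leaving out 1 library. In TFEB-wt Cre-neg fractions 1 was called, but 2 with a sex term, 3 with DESeq2, 2 from the compared libraries alone, 3 with the block and 1 to 2 on leaving out 1 library (2 without CCR2neg Cre-neg 4, through Ms4a6b at 0.50, adjusted p 0.042). Of all genes, 238 of 12795 were called higher there with the sex term and 259 of 12791 with DESeq2. From the compared libraries alone 141 of 12487 were called higher, and with the block 469 of 12795, with 339 called lower. The block there called Ms4a6b (0.43, adjusted p 0.0017) and Ms4a6c (0.50, adjusted p 1.8e-04), as well as Ms4a4a (0.66, adjusted p 2.9e-04). It called 13 of 16 interferon genes and 1 B cell, 2 dendritic and 2 macrophage core markers higher. It also called 3 monocyte markers higher and 1 lower, 5 partner genes higher and 2 lower, and 3 resident, 2 neutrophil and 1 macrophage core markers lower. In TFEB-TG Cre-neg fractions the block called 2 in place of 1. In the CCR2pos Cre comparisons it called 1 in place of 0 in TFEB-wt and 1 in place of 0 in TFEB-TG. The block changed no other member count.

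Of the 65 log2 differences given singly, 588 of 605 values with 1 library left out and 489 of 520 under other settings kept direction and side of the threshold. Reversals were of small, uncalled differences, and their cause was not tested. Ms4a6d in TFEB-TG Cre-neg fractions gave -0.14 without the 5 libraries and -0.11 to 0.11 on leaving out 1 library, and in mac-TFEB fractions -0.038 to 0.19. Ms4a7 gave -0.22 to 0.038 for Cre in TFEB-wt CCR2neg and -0.034 to 0.17 for Cre in TFEB-TG CCR2pos. Ms4a4c gave -0.30 to 0.00 for TFEB in CCR2pos. Ms4a4a was called for TFEB in CCR2neg with a sex term (-0.77, adjusted p 0.037). A block of the shared numbers, which do not pair between genotypes, also called it (-0.75, adjusted p 0.044). The length of the longest transcript moved Ms4a6d to 669 and Ms4a7 to 537 CPM per kb with the order kept. Genes called over the whole table, in either direction, rose with the block from 102 to 552 in CX3CR1-Cre fractions, 69 to 481 in mac-TFEB, 301 to 808 in TFEB-wt Cre-neg and 417 to 1228 in TFEB-TG Cre-neg. The compared libraries alone gave 68 in the last, 32 in mac-TFEB and 67 in place of 176 for TFEB in CCR2neg, where a sex term gave 428. The block also called 32 in place of 0 for TFEB beyond the cassette in CCR2neg. Cassette calls in CCR2neg ran from 1 to 285 (52 as reported) and Cre calls in TFEB-TG CCR2neg from 6 to 301 (20). The lowest member count was 432 reads, and the part of depth in these values was not tested.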
